A study of Mus musculus with 42 samples.

Results

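The genes that write, copy and erase DNA methylation were examined in cell fractions of the mouse testis enriched for spermatogonia, the mitotic germ cells that later enter meiosis. The 9 genes, Dnmt1, Uhrf1, Dnmt3a, Dnmt3b, Dnmt3l, Tet1, Tet2, Tet3 and Tdg, were chosen by name because of their roles, and all 9 were found by gene ID among the 27179 genes of the count table. All 9 passed the filter on low counts in every comparison. RNA-seq was performed on cells isolated with magnetic beads from testes of C57BL/6J males at 10 days postpartum (dpp). The beads were against c-Kit, a surface receptor of spermatogonia that have started to differentiate, or against the surface antigen Thy1. The paper used Thy1 to isolate undifferentiated spermatogonia. The Thy1 beads were applied to the cells that the c-Kit beads had not retained. Control mice were Ddx4-Cre/Chd8+/F and conditional knockout (CKO) mice were Ddx4-Cre/Chd8F/-, where F is a floxed allele of the chromatin remodeler gene Chd8 and the minus sign a null allele. Each of the 4 groups (Thy1+ control, Thy1+ CKO, c-Kit+ control and c-Kit+ CKO) had 3 libraries. Both genotypes carried the Cre transgene and a floxed allele, so the control germ cells can lose 1 Chd8 copy. Since the Ddx4 promoter drives Cre in germ cells, Cre did not target somatic cells of the testis. The null allele is part of the CKO genotype in every cell, so CKO somatic cells carried it and control somatic cells did not. The methods name pups per analysis without saying whether each library came from a separate animal, so the p-values measure the spread between these libraries.

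Cytosines followed by guanine (CpG) are the main methylated bases of mammalian DNA. DNMT1 copies the methyl group to the new strand after replication, guided by UHRF1, which binds CpGs methylated on the old strand only. DNMT3A and DNMT3B methylate unmarked DNA (de novo methylation), and DNMT3L is a cofactor without catalytic activity that is required for methylation in the fetal male germline. The TET dioxygenases oxidize methylated cytosine, and TDG is the glycosylase that cuts out the more oxidized forms so that base excision repair can restore an unmodified cytosine. Spermatogonia divide with a methylome that was set before birth, and the expression of several germline genes is tied to the methylation of their promoters.

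The total count per library ran from 32266861 to 45396233. Counts of Chd8 were 259 to 278 CPM (counts scaled to a common library size) in Thy1+ control, 258 to 298 in Thy1+ CKO, 263 to 305 in c-Kit+ control and 297 to 316 in c-Kit+ CKO libraries, with a log2 fold change (CKO over control) of 0.03 in Thy1+ and 0.06 in c-Kit+ cells. Only some exons are floxed, so a count over the whole gene cannot show the deletion. The RNA of the sorting antigen Thy1 was 11.7 to 17.1 CPM in the Thy1+ libraries and 0.436 to 1.07 CPM in the c-Kit+ libraries, and Kit was 171 to 432 CPM and 626 to 782 CPM. Of 10 markers of undifferentiated spermatogonia 8 were called higher, and of 7 markers of differentiating spermatogonia 6 were called lower, in Thy1+ than in c-Kit+ control cells. The 6 include the sorting antigen Kit itself. Libraries of both sorts held RNA of somatic cells. The summed level of 7 stromal markers (Col1a1, Col1a2, Col3a1, Pdgfra, Dcn, Lum and Tcf21) was 11100 to 14500 CPM in Thy1+ control, 12500 to 19200 in Thy1+ CKO, 1820 to 2270 in c-Kit+ control and 3290 to 4380 in c-Kit+ CKO libraries, while 8 germ cell markers summed to 1660 to 2390, 1190 to 1970, 2540 to 2990 and 1990 to 2290 CPM. The 2 Thy1+ libraries of replicate 1 stood apart by their Sertoli markers (2880 and 3830 CPM, against 642 to 1360 CPM in the other 4).

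Levels were first compared between the genes per kilobase of exon (RPKM). Over the 12 libraries, genes of DNA methylation maintenance were the highest, with a mean of 88.8 RPKM for Dnmt1 and 72.7 RPKM for Uhrf1, above 96.2% and 94.9% of the 18002 genes that passed the filter, whose median was 7.34 RPKM. Dnmt3b followed at 45.0 RPKM, then Tet3 at 24.8, Dnmt3a at 23.6 and Tdg at 18.0 RPKM. Tet2 (4.32 RPKM) and Tet1 (2.29 RPKM) were below the median gene, and Dnmt3l was lowest with 0.588 RPKM. Dnmt3l rested on only 14 to 68 counts in a library, against at least 352 counts for each of the other genes.

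The order of the levels differed between the sorted populations in 1 position. In c-Kit+ libraries Tet3 (27.8 ± 1.94 RPKM in control, 28.7 ± 2.14 in CKO; SD, n = 3) was above Dnmt3a (21.9 ± 1.24 and 24.3 ± 1.47), and their ranges did not overlap in either genotype. In Thy1+ libraries Dnmt3a (25.1 ± 1.53 in control, 23.2 ± 1.80 in CKO) came before Tet3 (20.8 ± 1.71 and 22.0 ± 1.95), and the ranges of this pair overlapped in Thy1+ CKO. Dnmt1 and Uhrf1 overlapped in both Thy1+ groups, Dnmt3b and Dnmt3a overlapped in Thy1+ control, and Tet1 and Dnmt3l overlapped in c-Kit+ control. All other neighbours in the order were separate in each group.

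**Figure D1:**
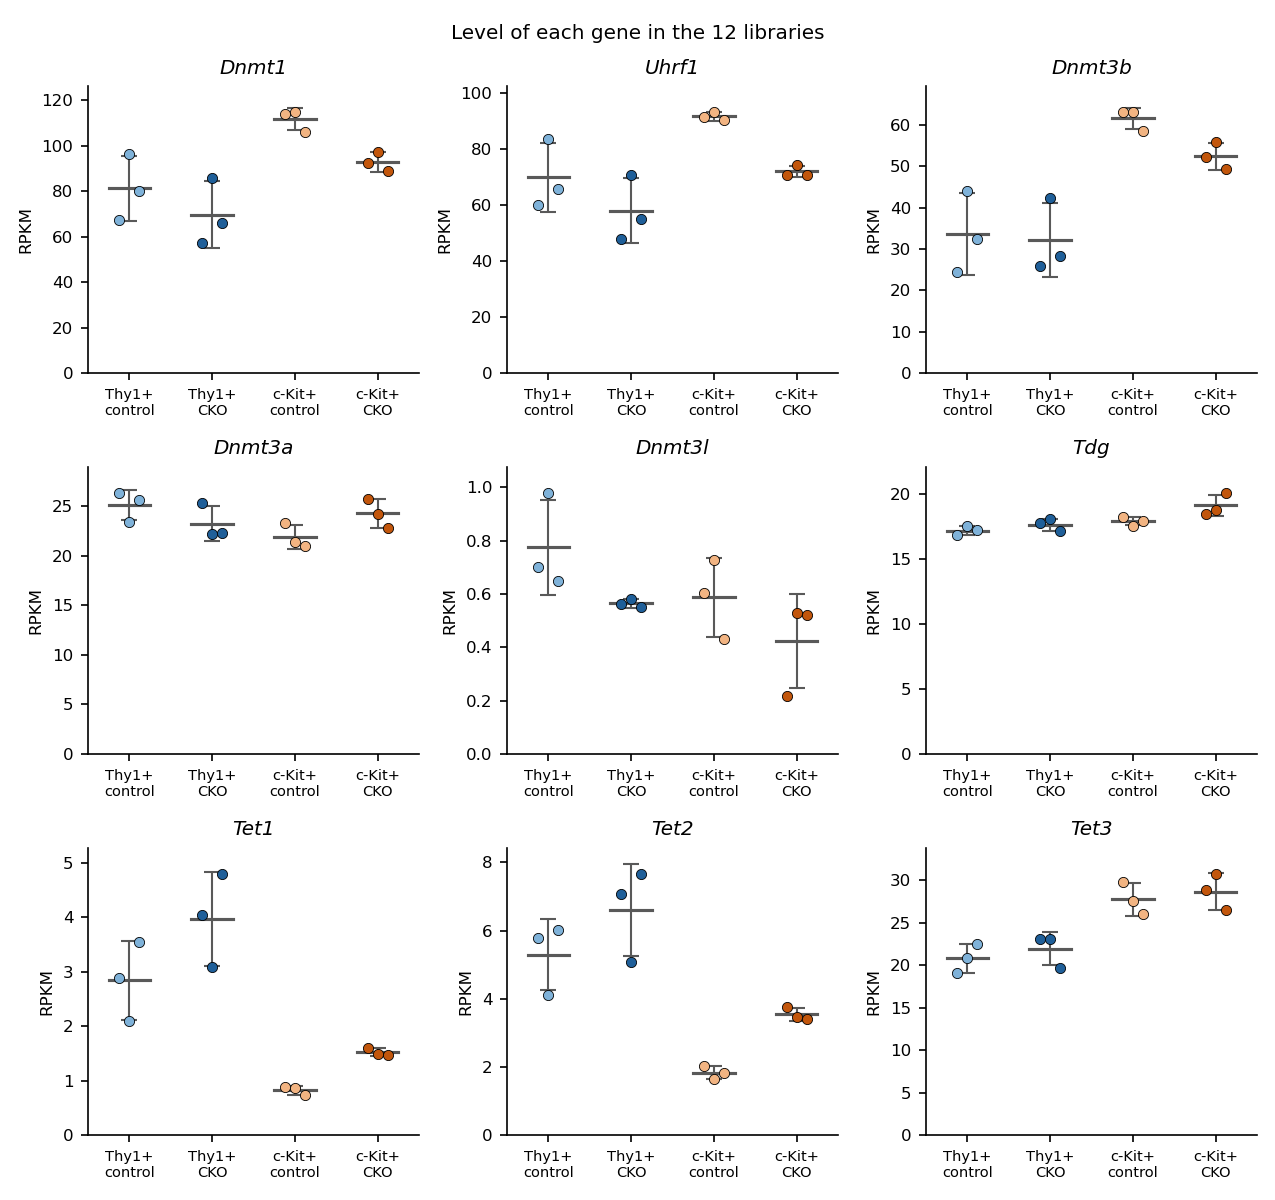
RPKM (y axis, from 0) of each gene in the 12 libraries, grouped by sorted population and genotype (x axis); points are libraries in the order of their replicate number, and grey bars give the mean and SD of 3 libraries. Tet1 and Tet2 are lowest in c-Kit+ control cells (0.819 and 1.82 RPKM on average), where Dnmt1, Uhrf1 and Dnmt3b are highest (112, 91.5 and 61.7 RPKM).

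Dnmt1 lies on chromosome 9 (20907206 to 20959888, minus strand, mm10) and Uhrf1 on chromosome 17 (56303337 to 56323486, plus strand), and their levels went together across the 12 libraries (Pearson r = 0.979 of log2 CPM, a description over libraries that fall into 4 groups). Both genes are best known from dividing cells, so the 250 bases before each RefSeq start (GRCm38.p6) were searched for letters bound by E2F factors, which drive genes of the S phase. The search used TTTCCCGC, TTTCGCGC, TTTGCCGC and TTTGGCGC on both strands. Such letters were present before 610 of 32817 annotated starts (1.86%) and before 2 of the 16 starts of the 9 genes, 1 of Dnmt1 and 1 of Uhrf1. These 2 windows held 26 (Dnmt1) and 30 CpGs (Uhrf1), against a median of 6. The share of 1.86% was not matched for CpGs, so the counts cannot show an enrichment. Each match is shown in capitals with 11 bases on either side, read along the gene's strand; the Dnmt1 match is on the opposite strand, and neither overlaps a match to the GC box (GGGCGG) or the CCAAT box (CCAAT).
Dnmt1 (chr9:20952824-20952853, minus strand): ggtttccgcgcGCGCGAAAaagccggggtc
Uhrf1 (chr17:56304117-56304146, plus strand): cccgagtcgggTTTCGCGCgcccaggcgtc
The Dnmt1 match lies 219 to 212 bases before the most downstream of its 3 annotated starts, inside coding sequence of transcripts that start further upstream. The Uhrf1 match lies 185 to 178 bases before the second of its 2 starts and in no annotated exon. The exon-free stretch of 182 bases around it, with the match in capitals, holds 22 CpGs, 2 GC boxes and 2 CCAAT boxes.
Uhrf1 (chr17:56304063-56304244, plus strand): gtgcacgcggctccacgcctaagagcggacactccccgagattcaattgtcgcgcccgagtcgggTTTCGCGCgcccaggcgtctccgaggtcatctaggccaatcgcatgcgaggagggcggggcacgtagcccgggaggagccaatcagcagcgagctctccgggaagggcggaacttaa
A GC box was present before 32.7% and a CCAAT box before 33.8% of all annotated starts. No E2F letters were found before the starts of Dnmt3a, Dnmt3b, Dnmt3l, Tet1, Tet2, Tet3 and Tdg, which says only that these letters are not in these windows. The window before Tet2 had 51 CpGs, more than 99.9% of all windows, that before Tet1 had 15, and the median window had 6. The matches are a description of the sequence.

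The control libraries of the 2 populations, which also differ in their somatic RNA, were compared to ask how the genes differ between these sorted fractions. Tet1 and Tet2 were higher in Thy1+ cells and Dnmt3b was lower, while Dnmt3a, Dnmt3l and Tdg did not pass the test. A gene was called in edgeR's quasi-likelihood test where its false discovery rate (FDR) was below 0.05 and the size of its log2 fold change above 0.5 (the fold minimum). By this rule 2 of the 9 genes were called higher (20.7% of the 17350 genes tested) and 1 was called lower (7.08%).

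Tet1 was at 2.88, 2.09 and 3.55 RPKM in Thy1+ control libraries and at 0.873, 0.857 and 0.726 RPKM in c-Kit+ control libraries. The groups did not overlap, as for 54.3% of all genes tested, and the log2 fold change (Thy1+ over c-Kit+) was 1.82 ± 0.20 (SE; edgeR FDR = 2.3e-04), a fold of 3.53. Tet2 was at 5.77, 4.10 and 6.02 RPKM against 2.01, 1.63 and 1.83 RPKM, with a log2 fold change of 1.56 ± 0.17 (edgeR FDR = 2.17e-04). In both genes replicate 2 was the lowest of the Thy1+ control libraries. Tet1 and Tet2 moved with the stromal markers, of which 7 of 7 were called higher in Thy1+ control cells. These markers had a median log2 fold change of 2.73, against 0.03 for all genes tested. Also called higher were 8 of 10 markers of undifferentiated spermatogonia (median 2.41), 4 of 5 peritubular myoid (2.585), 7 of 8 macrophage (2.04) and 3 of 6 endothelial markers. Called lower were 6 of 7 markers of differentiating spermatogonia, 5 of 6 Leydig, 4 of 5 tested mast cell and 3 of 8 germ cell markers. The lowest level of Pdgfra in any library was 143 CPM and that of Dcn 131 CPM. The part of stromal RNA, or of any other cell type, in the levels of Tet1 and Tet2 was not tested. In such bulk libraries fewer cells of a type and less RNA per cell cannot be told apart.

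Tet3, the third dioxygenase, was lower in Thy1+ cells. In CPM it was at 208, 228 and 246 in Thy1+ control and at 326, 300.2 and 284 in c-Kit+ control libraries, without overlap. Its log2 fold change was -0.39 ± 0.09 (edgeR FDR = 0.0119), which passed the FDR threshold and not the fold minimum. Tet3 made up 91.3 ± 0.342% of the summed RPKM of Tet1, Tet2 and Tet3 in c-Kit+ control cells and 72.0 ± 4.45% in Thy1+ control cells (SD, n = 3), without overlap. An exact two-sided permutation test of 3 against 3 libraries gave p = 0.1, the smallest value this design allows. Tdg, on chromosome 10, was nearly level across the groups, from 16.8 to 17.5 RPKM in Thy1+ control and from 17.6 to 18.2 RPKM in c-Kit+ control libraries (log2 fold change -0.03 ± 0.08, 95% interval -0.23 to 0.16).

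Dnmt3b, on chromosome 2 (153649454 to 153687730, plus strand), was at 24.4, 44.1 and 32.6 RPKM in Thy1+ control and at 63.1, 63.2 and 58.7 RPKM in c-Kit+ control libraries. All Thy1+ libraries were below all c-Kit+ libraries, with a log2 fold change of -0.85 ± 0.18 (edgeR FDR = 0.0078). Dnmt3a differed by 0.22 ± 0.09 in the opposite direction and did not pass (edgeR FDR = 0.0778). With the replicate number as a block its FDR was 0.0302, still under the fold minimum. The ratio of Dnmt3b to Dnmt3a was 2.82 ± 0.122 in c-Kit+ control and 1.36 ± 0.486 in Thy1+ control cells (RPKM ratio, SD, n = 3). Within the Thy1+ controls it ran from 0.928 to 1.89, so that replicate 1 had slightly more Dnmt3a and replicate 2 clearly more Dnmt3b. Dnmt3c, a rodent paralogue next to Dnmt3b, was not analysed here, and reads shared by both genes are an uncertainty of the Dnmt3b count. Dnmt3l was within 0.648 to 0.978 RPKM in Thy1+ and 0.431 to 0.728 RPKM in c-Kit+ control libraries, and its log2 fold change of 0.42 ± 0.33 did not pass.

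The maintenance genes were lower in Thy1+ control cells by less than the fold minimum. Dnmt1 was at 67.3, 96.1 and 80.2 RPKM against 114, 115 and 106 RPKM in c-Kit+ control libraries (log2 fold change -0.44 ± 0.12, edgeR FDR = 0.0249). Uhrf1 was at 60.0, 83.5 and 65.7 RPKM against 91.3, 93.0 and 90.1 RPKM (-0.37 ± 0.12, edgeR FDR = 0.0382). With the replicate number as a block the FDR was 0.00445 for Dnmt1 and 0.00743 for Uhrf1, and neither was called. In fits without the block, the FDR of Dnmt1 was between 0.0514 and 0.080 without Thy1+ control replicate 3 or any c-Kit+ control library. That of Uhrf1 was between 0.0776 and 0.109 without Thy1+ control replicate 1 or 3 or any c-Kit+ control library. S-phase genes were lower in the same libraries, with 7 of 24 called lower and 0 called higher (median log2 fold change -0.44), led by Ccne2 (-1.02), the cyclin of the entry into S phase, and by the ribonucleotide reductase subunit Rrm2 (-0.73). With the block Ccne1 (-0.57 ± 0.21) was also called. The others called lower were Cdc45, Cdc6, Pole, Gins2 and Mcm5.

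**Figure D2:**
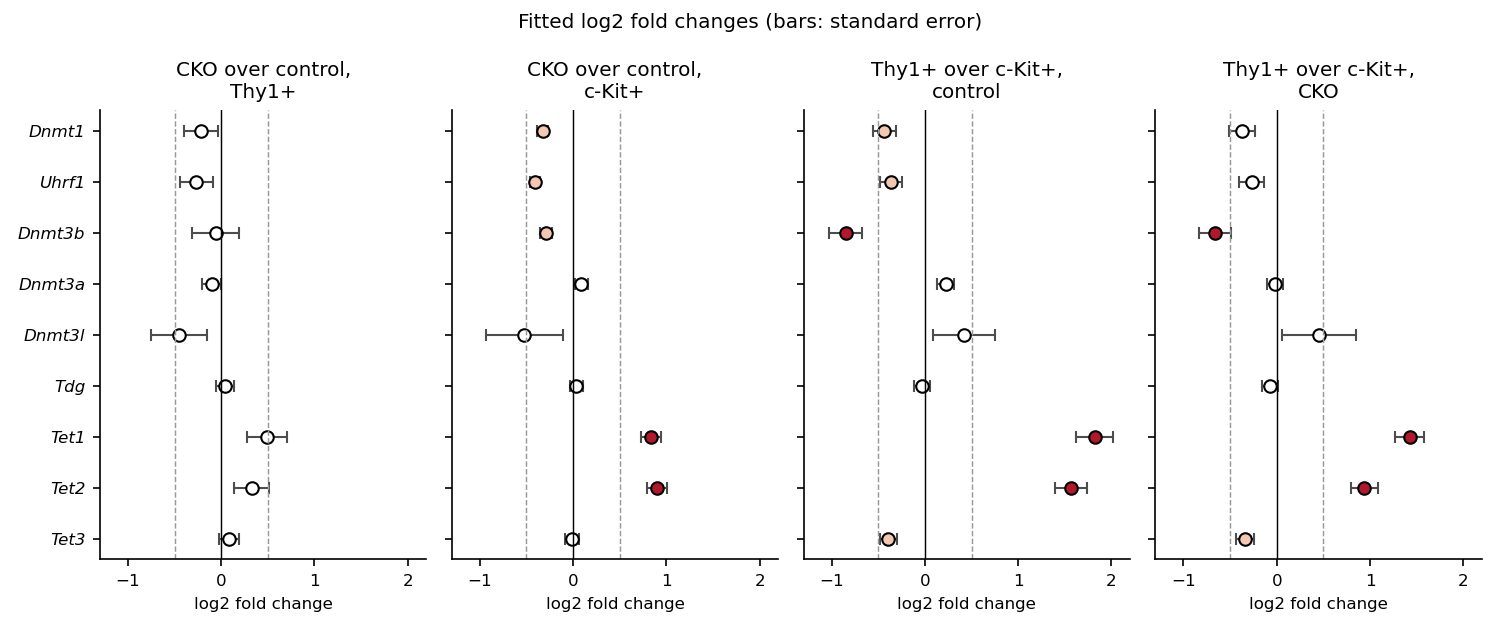
Fitted log2 fold change (x axis) of each gene (y axis) in 4 comparisons, with SE bars from 3 against 3 libraries; dark points are called, pale points pass the FDR threshold without the fold minimum of 0.5 (dashed lines), and white points do not pass. Tet1 and Tet2 are dark in all panels but that of Thy1+ CKO over control, and Dnmt3b is dark in both comparisons of populations.

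The same contrast in CKO cells called the same 3 genes, Tet1 and Tet2 higher (15.3% of the 17346 genes tested were called higher) and Dnmt3b lower (5.03%). The log2 fold changes (Thy1+ over c-Kit+) were 1.42 ± 0.15 for Tet1, 0.94 ± 0.15 for Tet2 and -0.66 ± 0.17 for Dnmt3b (edgeR FDR = 2.75e-04, 0.00211 and 0.0240). The call of Dnmt3b was lost without Thy1+ CKO replicate 3 or without any of the c-Kit+ CKO libraries (edgeR FDR from 0.0599 to 0.104, log2 fold change from -0.72 to -0.57). Tet3 had -0.34 ± 0.10 (edgeR FDR = 0.0317), while Dnmt1 (-0.37 ± 0.14) and Uhrf1 (-0.27 ± 0.14) did not pass. Thy1+ and c-Kit+ CKO libraries did not overlap for any of the 9 genes but Dnmt3a, as for 50.1% of all genes tested.

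The c-Kit+ CKO libraries were compared with their controls to ask which of the genes differ between the genotypes in this sorted population. Tet1 and Tet2 rose, to 1.78 and 1.86 times the control level. The maintenance genes Dnmt1 and Uhrf1 and the de novo gene Dnmt3b were lower by less than the fold minimum, while Dnmt3a, Dnmt3l, Tet3 and Tdg did not pass. With 2 of 9 genes called higher and 0 called lower, the background in this comparison was 14.8% of 17134 genes called higher and 7.41% called lower, and 52.2% of all genes tested had control and CKO libraries that did not overlap.

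Tet1 was at 0.873, 0.857 and 0.726 RPKM in c-Kit+ control and at 1.61, 1.48 and 1.48 RPKM in c-Kit+ CKO libraries. Every CKO library was above every control library, and the log2 fold change was 0.84 ± 0.11 (edgeR FDR = 4.83e-04). Tet2 was at 2.01, 1.63 and 1.83 RPKM in control and at 3.75, 3.46 and 3.41 RPKM in CKO libraries, again without overlap (0.90 ± 0.10, edgeR FDR = 2.89e-04). The range of the FDR over the alternatives tried was 1.95e-09 to 0.00634 for Tet1 and 1.05e-12 to 0.00306 for Tet2, and both remained called under each of them. Tet3 stayed within its replicate spread, at 29.8, 27.5 and 26.0 RPKM in control and 28.8, 30.7 and 26.5 RPKM in CKO libraries (-0.01 ± 0.07, 95% interval -0.18 to 0.15). The share of Tet3 in the summed Tet level was 91.3 ± 0.342% in control and 85.0 ± 1.03% in CKO cells (exact permutation p = 0.1, the smallest possible here). Tdg was at 17.6 to 18.2 RPKM in control and at 18.5 to 20.1 RPKM in CKO libraries, which did not overlap on this scale, but its fitted log2 fold change was only 0.04 ± 0.07.

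Markers of somatic cells were higher in the same c-Kit+ CKO libraries. All 7 stromal, 6 of 6 endothelial, 12 of 13 Sertoli, 4 of 6 Leydig, 3 of 5 peritubular myoid, 4 of 5 tested mast cell and 1 of 8 macrophage markers were called higher, and none of these lists had a gene called lower. The 8 germ cell markers all had negative log2 fold changes (median -0.29), with 1 called lower. Tet1 amounted to 0.54 to 0.568% of the summed stromal CPM in c-Kit+ control and 0.516 to 0.633% in c-Kit+ CKO libraries, and Tet2 to 0.705 to 0.923% and 0.787 to 0.966%, so that relative to these markers both groups overlapped. In Thy1+ control cells the same quantities were lower, 0.265 to 0.345% for Tet1 and 0.338 to 0.383% for Tet2. Whether the level of Tet1 and Tet2 within germ cells changed was not tested.

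**Figure D3:**
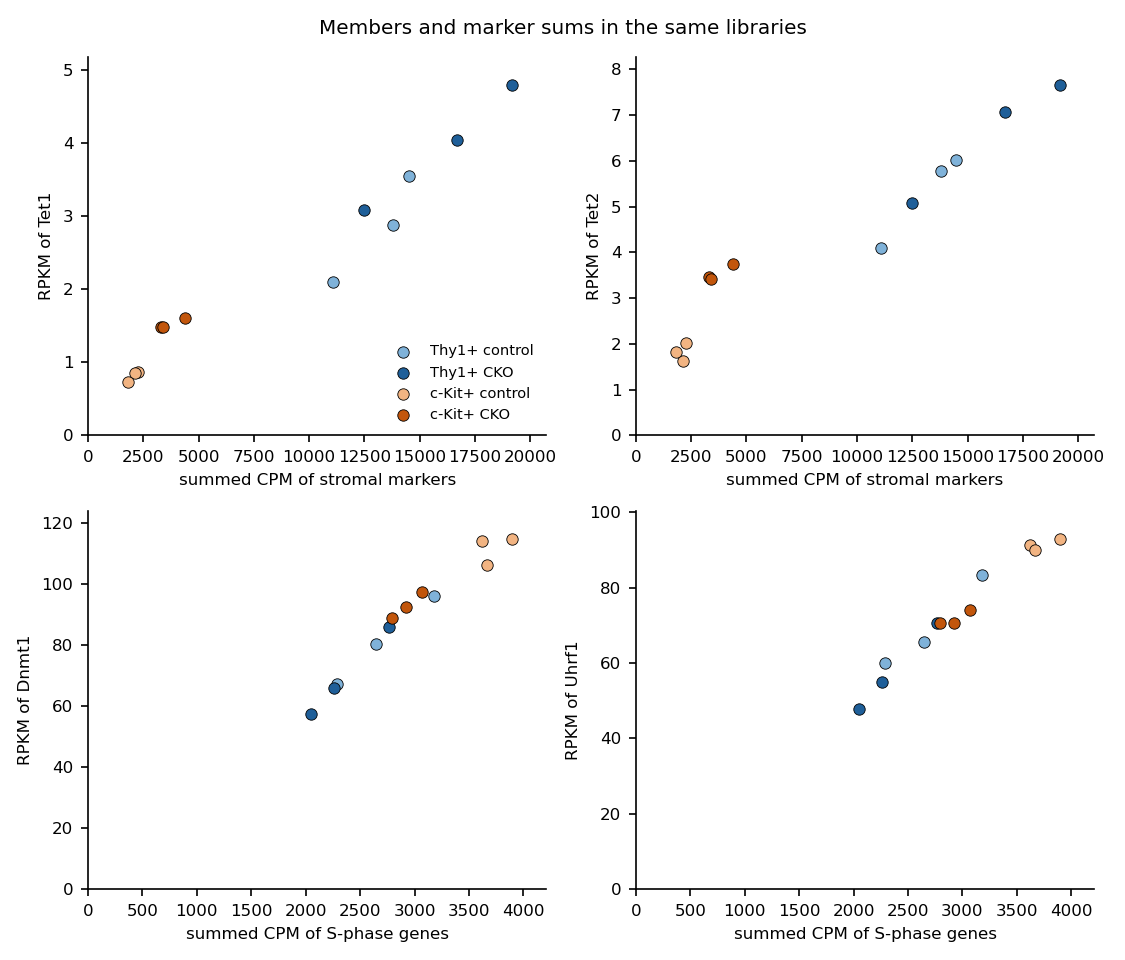
RPKM of Tet1, Tet2, Dnmt1 and Uhrf1 (y axes, from 0) against the summed CPM of 7 stromal markers (top) or 24 S-phase genes (bottom) in the same library; each point is 1 of 12 libraries, coloured by group. The c-Kit+ CKO libraries (3290 to 4380 CPM of stromal markers) lie above and to the right of the c-Kit+ control libraries (1820 to 2270 CPM) in the top panels, and below and to the left of them in the bottom panels.

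Both maintenance genes were lower in c-Kit+ CKO cells by less than the fold minimum. Dnmt1 was at 114, 115 and 106 RPKM in control and at 92.3, 97.2 and 88.7 RPKM in CKO libraries, without overlap, with a log2 fold change of -0.32 ± 0.06 (edgeR FDR = 0.00182). Uhrf1 was at 91.3, 93.0 and 90.1 RPKM in control and at 70.7, 74.2 and 70.7 RPKM in CKO libraries (-0.41 ± 0.05, edgeR FDR = 4.59e-04). Of the 9 genes, 3 passed the FDR threshold below 0 (these 2 and Dnmt3b), against 18.3% of all genes tested. A fit of all 12 libraries shared their filter, scaling and spread. There the log2 fold changes were smaller, -0.267 for Dnmt1, -0.348 for Uhrf1 and -0.233 for Dnmt3b. The FDR was 0.189 for Dnmt1, 0.0794 for Uhrf1 and 0.415 for Dnmt3b, so that none of the 3 passed there.

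The genes of DNA replication were lower in the same libraries. Of 24 S-phase genes, 8 were called lower and 20 passed the FDR threshold below 0, and all 24 log2 fold changes were negative (median -0.36, against 0.01 for all genes tested). The largest decreases were those of Ccne2 (-1.04), Rrm2 (-0.96), the replicative helicase subunit Mcm5 (-0.78), the primase subunit Prim1 (-0.76) and Gins1 (-0.74), followed by Pole, Gins2 and Cdc45. Of 10 genes of G2 and M phase, the mitotic kinase gene Bub1 (-0.76) and the topoisomerase gene Top2a (-0.60) were called lower. Relative to the summed S-phase genes, Uhrf1 was 8.70 to 9.21% in control and 8.83 to 9.24% in CKO libraries and overlapped, while Dnmt1 was 18.2 to 19.9% in control and at least 19.9% in CKO libraries, which did not overlap before rounding. The part of the lower S-phase and germ cell sums in the values of Dnmt1 and Uhrf1 was not tested.

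Dnmt3b was at 63.1, 63.2 and 58.7 RPKM in c-Kit+ control and at 52.3, 55.8 and 49.3 RPKM in c-Kit+ CKO libraries. All CKO libraries were below the controls, with a log2 fold change of -0.29 ± 0.06 (edgeR FDR = 0.00559). Dnmt3a was at 23.3, 21.4 and 21.0 RPKM in control and at 25.7, 24.2 and 22.8 RPKM in CKO libraries, which overlapped (0.09 ± 0.07). The ratio of Dnmt3b to Dnmt3a, 2 enzymes of the same activity, was thus 2.82 ± 0.122 in control and 2.17 ± 0.136 in CKO cells (exact permutation p = 0.1, the smallest possible here). As a percentage of the summed germ cell markers, Dnmt3b was 9.12 to 10.4% in control and 10.3 to 10.7% in CKO libraries, and these ranges overlapped. As a percentage of the summed S-phase genes it was 6.92 to 7.54% in control and higher, 7.63 to 7.86%, in CKO libraries, without overlap. Dnmt3l was too shallow for a statement, with a log2 fold change of -0.52 and a 95% interval from -1.43 to 0.39.

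**Figure D4:**
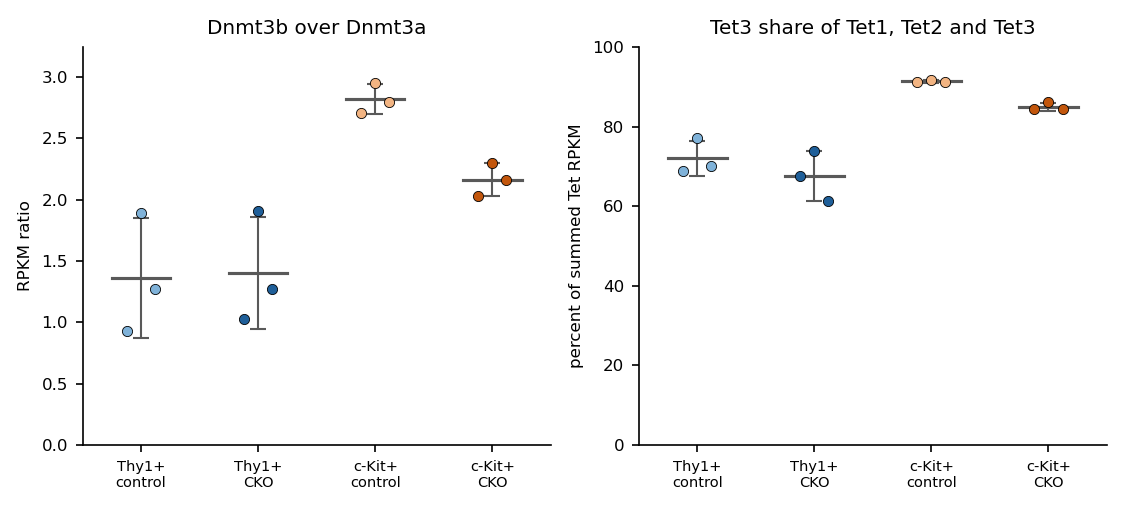
Ratio of Dnmt3b to Dnmt3a RPKM (left) and percentage of the summed RPKM of Tet1, Tet2 and Tet3 that came from Tet3 (right) in the 12 libraries, by group; points are libraries, grey bars the mean and SD of 3. Both are highest in c-Kit+ control cells (2.82 and 91.3%) and lower in c-Kit+ CKO cells (2.17 and 85.0%), and the Thy1+ genotypes overlap.

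Partner genes of the pathway were given from lists chosen by role, to be read against the 14.8% of all genes called higher and the 7.41% called lower in c-Kit+ CKO cells. Among 8 DNMT paralogues and maintenance partners that were tested, 5 passed the FDR threshold below 0 in c-Kit+ CKO cells. By this threshold alone, 18.3% of all genes tested passed below 0. None of the 5 partners reached the fold minimum. They included Hells (-0.48 ± 0.08), the remodeler that opens chromatin for methylation, and Pcna (-0.32 ± 0.07), the replication clamp that tethers DNMT1. Dppa3, which encodes an inhibitor of UHRF1, was called higher only with the replicate block (0.58 ± 0.26, edgeR FDR = 0.1, and 0.00937 with the block). Of 9 genes of methyl-CpG reader families, the zinc finger repressor gene Zbtb4 was called higher (0.57 ± 0.11). Of 15 genes of base excision and TET partners, 3 were called higher, namely Cxxc4 (0.80 ± 0.22), a CpG-binding protein gene, the glycosylase gene Neil1 (0.53 ± 0.16) and Gadd45g (0.51 ± 0.16), and Mbd4, the glycosylase of mismatched thymine at CpGs, was called lower (-0.60 ± 0.10). The shares called among the genes of reader families and among the base excision and TET partners were near those of all genes.

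The genes that direct de novo methylation to transposons through piRNAs, Piwil4, Tex15, Spocd1 and Morc1, had negative log2 fold changes in c-Kit+ CKO cells, and Tex15 was called lower. It was at 678 to 1033 CPM in c-Kit+ control and at 307 to 338 CPM in c-Kit+ CKO libraries, far apart, with a log2 fold change of -1.47 ± 0.13 (edgeR FDR = 1.32e-04). Of 14 germline genes whose promoters are known to be methylated in somatic cells, 5 were called lower and 0 higher, and all 14 values were negative (median -0.41). The 5 were Tex101 (-1.96 ± 0.17), Hormad1 (-1.64 ± 0.18), Sycp3 (-1.36 ± 0.14), Sycp1 (-1.36 ± 0.14) and Taf7l (-0.84 ± 0.09), of which Hormad1, Sycp1 and Sycp3 encode proteins of the meiotic chromosome axis and synapsis. Dazl, Ddx4 and Mael are among both the 14 germline genes and the germ cell markers. The RNA of the 14 germline genes says nothing of the methylation of their promoters.

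**Figure D5:**
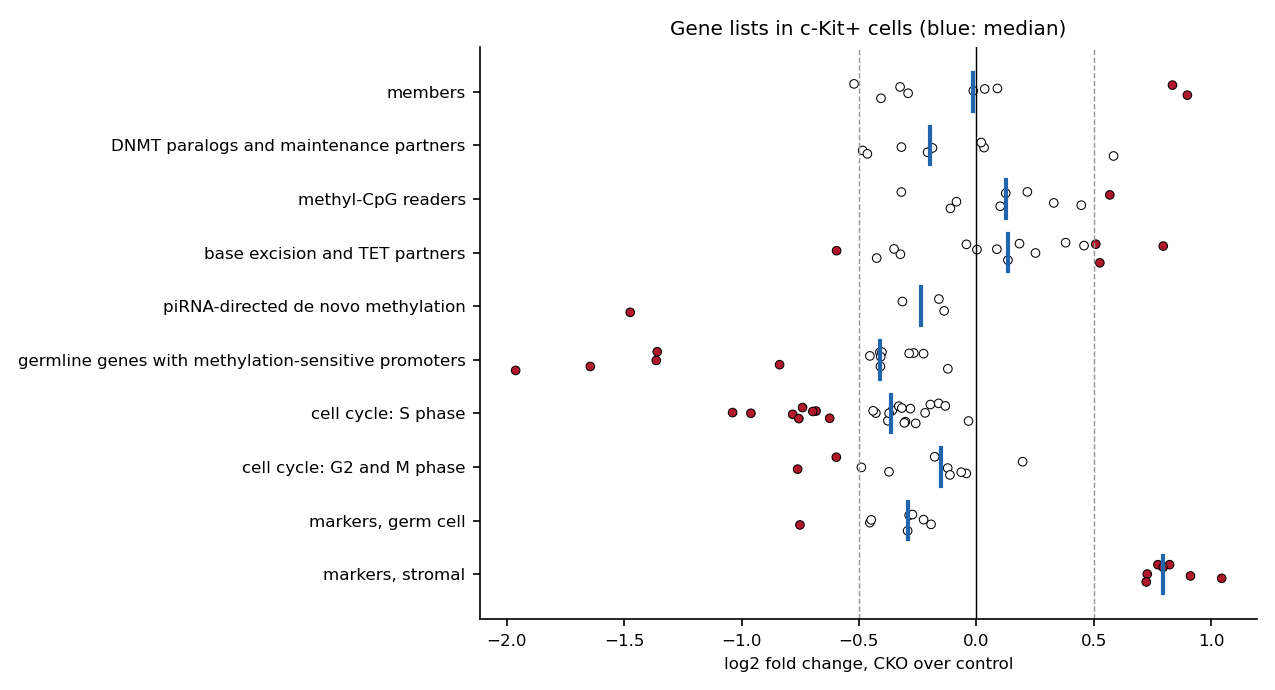
Log2 fold change of CKO over control in c-Kit+ cells (x axis) for each tested gene of the lists named on the y axis; filled points are called, blue bars are medians, and dashed lines mark the fold minimum of 0.5. All 14 germline genes with methylation-sensitive promoters and all 24 S-phase genes lie below 0, and the 7 stromal markers lie above 0.5.

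The same lists were counted between Thy1+ and c-Kit+ control cells, where 20.7% of all genes tested were called higher and 7.08% lower. Of 8 DNMT partners 1 was called lower. Of 9 genes of reader families 2 and of 15 base excision and TET partners 2 were called higher. These counts do not set the lists apart from all genes. Hells was called lower (-0.76 ± 0.17), as was Dppa3 with the replicate block only (-1.04 ± 0.41, edgeR FDR = 0.0752, and 0.00532 with the block). Zbtb4 (1.27 ± 0.15) and Mbd2 (0.52 ± 0.11), readers of methylated CpGs, were called higher, as were Ogt (0.81 ± 0.13), the glycosyltransferase that binds TET proteins, and Neil1 (0.76 ± 0.20). Spocd1 was higher (1.34 ± 0.20) and Tex15 lower (-0.88 ± 0.22). Of the 14 germline genes with methylation-sensitive promoters 6 were called lower, namely Tex101 (-1.16), Hormad1 (-1.13), Sycp3 (-1.12), Sycp1 (-0.97), Taf7l (-0.75) and Dazl (-0.71). Of the genes of G2 and M phase 5 of 10 were lower, Bub1 (-0.86), Top2a (-0.67), Plk1 (-0.63), Ccnb1 (-0.52) and Mki67 (-0.51). Between the CKO populations Hells (-0.56), Dppa3 (-0.95), Gadd45g (-0.72) and Cxxc4 (-0.67) were called lower in Thy1+ cells and Zbtb4 (0.98) and Gadd45b (0.52) higher. Of the germline genes Sycp3 (-0.70), Rpl10l (-0.61), Dazl (-0.61) and Taf7l (-0.58) were called lower there, and of the cell cycle genes Cdc6 (-0.52), Ccne2 (-0.52) and Ccnb1 (-0.51) were lower and Tk1 (0.55) was higher.

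Deletion of Chd8 was examined in Thy1+ cells in the same way. Without the replicate number as a block, none of the 9 genes was called, nor was any of the 17416 genes tested (0% called). Of these, 2151 genes (12.4%) were below 0.05 before adjustment, and the lowest edgeR FDR was 0.141. The paper, with edgeR's exact test at the same thresholds, reported genes changed in both directions in Thy1+ cells. The values of Tet1, Tet2, Dnmt1 and Uhrf1 had the same sign as those in c-Kit+ cells, with a large spread between libraries of the same group. With the replicate number as a block these 4 passed the FDR threshold, as did 29.2% of all genes tested, but none reached the fold minimum.

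Tet1 was at 2.88, 2.09 and 3.55 RPKM in Thy1+ control and at 4.03, 3.08 and 4.79 RPKM in Thy1+ CKO libraries. The groups overlapped, as all but 17.2% of the genes tested did, and the log2 fold change was 0.49 ± 0.22 (edgeR FDR = 0.409, and 6.94e-05 with the replicate block). Between libraries of the same replicate number, CKO over control, it was 0.49, 0.56 and 0.43 on the log2 scale. Tet2 was at 5.77, 4.10 and 6.02 RPKM in control and at 7.08, 5.08 and 7.66 RPKM in CKO libraries (0.33 ± 0.19, FDR = 0.493 and, with the block, 0.00148). With each library left out in turn, the value of Tet1 ran from 0.32 (without control replicate 2) to 0.68 (without control replicate 3) and that of Tet2 from 0.18 (without control replicate 2) to 0.46 (without CKO replicate 2), and none passed. Replicate 2 of both genotypes was lowest for Tet1 and Tet2 and also lowest for the stromal markers (11100 CPM in control, 12500 CPM in CKO). The 7 stromal markers had a median log2 fold change of 0.34 in this comparison, all positive. None was called without the block, and with it all 7 passed the FDR threshold and 1 was called.

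Dnmt1 was at 67.3, 96.1 and 80.2 RPKM in Thy1+ control and at 57.4, 85.8 and 65.8 RPKM in Thy1+ CKO libraries (-0.22 ± 0.19, FDR = 0.623 and, with the block, 0.00276). Uhrf1 was at 60.0, 83.5 and 65.7 RPKM in control and at 47.9, 70.5 and 55.0 RPKM in CKO libraries (-0.26 ± 0.18, FDR = 0.542 and, with the block, 7.4e-04). Between libraries of the same replicate number, CKO over control, Dnmt1 was -0.23, -0.164 and -0.285 on the log2 scale. For Uhrf1 these values were -0.325, -0.244 and -0.257. In fits without the block, the values of Dnmt1 and Uhrf1 were -0.07 and -0.10 without replicate 2 of the controls. They were -0.42 and -0.46 without replicate 2 of the CKO, and none passed. Leaving out a single library in such fits also unbalances the replicate numbers between the genotypes. Replicate 2 was the highest of both groups for both genes, and also for the S-phase sum (3180 CPM in control, 2770 CPM in CKO) and the germ cell sum (2390 and 1970 CPM). Dnmt3b was likewise highest in replicate 2, at 44.1 and 42.4 RPKM. As a percentage of the summed germ cell markers it was 6.35 to 8.17% in Thy1+ control and 9.30 to 9.66% in Thy1+ CKO libraries, without overlap, and as a percentage of the S-phase sum 4.6 to 5.99% and 5.42 to 6.60%, with overlap. Its log2 fold change of -0.06 ± 0.25 changed sign with the library left out. Dnmt3a (-0.10 ± 0.10), Tet3 (0.08 ± 0.11) and Tdg (0.04 ± 0.10) did not pass with or without the block. Dnmt3l was at 0.648 to 0.978 RPKM in control and at 0.550 to 0.583 RPKM in CKO libraries, and did not pass (-0.45 ± 0.30, FDR = 0.540), although its groups did not overlap. All 10 markers of undifferentiated spermatogonia had negative log2 fold changes in these Thy1+ CKO libraries (median -0.86), of which none was called without the block and 8 were called lower with it.

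Partner genes in Thy1+ cells were called only with the replicate block, under which 3.20% of all genes tested were called higher and 4.92% lower. Markers of the cell types moved in the same blocked fit. All 8 germ cell markers passed the FDR threshold below 0, as did 2366 of the 17416 genes tested. Of the 8, 2 were called lower, as were 8 of 10 markers of undifferentiated spermatogonia, and 10 of 13 Sertoli markers were called higher. The part of these shifts in the values of the germline genes was not tested. Dazl, Ddx4 and Mael belong both to the germ cell markers and to the germline genes, so these lists are not independent. All 4 piRNA-directed factors were called lower, with Tex15 (-1.11), Spocd1 (-0.80), Morc1 (-0.68) and Piwil4 (-0.63) as their blocked log2 fold changes. Of the 14 germline genes with methylation-sensitive promoters 6 were called lower, with Tex101 (-1.21), Hormad1 (-1.11), Sycp3 (-0.88), Sycp1 (-0.84), Taf7l (-0.63) and Tex19.1 (-0.54). The glycosylase gene Neil2 was called lower (-0.54) and Dppa3 was called higher (0.76) from 1.43 to 3.93 CPM in control and 2.55 to 5.51 CPM in CKO libraries.

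The effects of genotype in c-Kit+ and Thy1+ cells were compared in a fit of all 12 libraries. No difference was called among the 9 genes or among all 18002 genes (0%), although 1804 genes (10%) were below 0.05 before adjustment. The largest difference was that of Tet2, whose log2 fold change was higher in c-Kit+ cells by 0.64 ± 0.24 (edgeR FDR = 0.431, and 0.0526 with the block, which called 2.48% of all genes). The difference was 0.41 ± 0.26 for Tet1, with a 95% interval from -0.16 to 0.99, and 0.26 ± 0.12 for Dnmt3a (edgeR FDR = 0.491). The intervals of Tet2 (0.13 to 1.15) and Dnmt3a (0.007 to 0.51), which are not adjusted for the number of genes, excluded 0. The difference was -0.05 ± 0.20 for Dnmt1 and -0.08 ± 0.19 for Uhrf1, with intervals from -0.48 to 0.39 and from -0.49 to 0.34. After adjustment over all genes, a difference between the populations was thus not shown for any of the 9 genes.

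The genes whose pattern over the 12 libraries was most like that of each gene were taken by Pearson r of log2 CPM among 13675 or 13676 others. These values describe libraries that fall into 4 groups and share their cell composition. Dnmt1 was most like Pold1, the catalytic subunit of a replicative polymerase (r = 0.996), Ndrg4 and Nup133 (both 0.994). Uhrf1 was most like Mcm7, a subunit of the replicative helicase (0.993), Pask (0.992) and Gemin5 (0.990). Dnmt3b was most like Ppa1 (0.996), Txnrd3 and Rasd2 (both 0.995). Tet1 was most like Ncs1 (0.996), Cntnap1 (0.995) and Vwa5a (0.994), and Tet2 was most like Os9, Arhgap42 (both 0.997) and Nfkb1 (0.996). For Tet3 these were Atp5md (0.958), Tmem258 and Pfdn6 (both 0.951), and for Tdg Iba57 (0.944), Atp5j2 (0.940) and Vps37c (0.934). Dnmt3a (Timm17a, 0.873; Syne2, 0.872; Trrap, 0.870) and Dnmt3l (Chrdl1, 0.888; Rab29, 0.869) had the lowest values. Among the 9 genes themselves, Tet1 and Tet2 reached r = 0.984, while Dnmt1 had r = -0.888 with Tet1 and -0.908 with Tet2.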

How the data were processed

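RNA-seq of 12 libraries (3 in each of 4 groups) was analysed. Paired-end reads were trimmed (Trimmomatic 0.39) and aligned to mm10 (HISAT2 2.1.0) by the authors, who deposited raw counts per gene made by featureCounts (2.0.3 per the file headers) over RefSeq exons. The kit was directional, but the command sets no strand, so antisense reads are included. It counts both reads of a fragment. Exons of Dnmt3a overlap an unnamed gene by 234 bases and those of Tdg overlap Glt8d2 by 62 bases. Symbols came from RefSeq, which matched 25275 of 27179 gene IDs.

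Tests used edgeR 4.0.16 (R 4.3.3), the quasi-likelihood F test after filterByExpr and TMM within each comparison, with Benjamini-Hochberg adjustment over all genes tested. SE is the absolute log2 fold change over the square root of F, and the 95% interval uses the t quantile at the moderated degrees of freedom. CPM and RPKM are scaled over all 12 libraries, so their ratios differ slightly from the fitted fold changes. The precision is set by the spread between 3 libraries, except for Dnmt3l, where counts are few. Steps were tested on simulated data. Alternatives were edgeR's exact test, DESeq2 1.42.0, other scalings, filters and designs, and each library left out. The fits with a library left out had no replicate block. All 9 genes, the called genes of each pathway and cell cycle list and, for each of the 9, the 3 most similar genes (mean log2 CPM 1 or more) are named, except 1 that is not reported here. The genes and lists were chosen with earlier results of these data known. Relative levels to marker sums were added after the data were seen.

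Whether equal replicate numbers mark paired libraries was checked from each library's deviations from its group mean. Their correlations for equal numbers were 0.266 to 0.490 for Thy1+ CKO and control (unequal numbers, -0.384 to -0.0405), 0.101 to 0.125 for c-Kit+ CKO and control (unequal numbers, -0.0659 to -0.0384) and 0.134 to 0.298 for the control populations, all over the limit of 0.1 for pairing. Between CKO populations 1 of 3 pairs and in the test of the difference of effects 10 of 18 pairs passed. The source of this pairing is not given in the labels. ChIP-seq samples of the series were not used here.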

Additional observations from a re-analysis of the deposited data

How the results depend on the processing

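Of the recalculated values of single genes, 628 kept their direction and side of the call, 30 changed sign, 4 lost and 4 gained the call, and the calls of Tet1 and Tet2 in c-Kit+ CKO cells and between the populations held under every alternative run. With no minimum on the fold change, the count called lower was 3 in c-Kit+ CKO cells (Dnmt1, Dnmt3b, Uhrf1; also 3 with the replicate block), 4 between control populations (Dnmt3b, Dnmt1, Uhrf1, Tet3; also 4 with the block) and 2 between CKO populations (3 with the block). The replicate block with no minimum, added after the data were seen, called 2 higher and 2 lower in Thy1+ CKO cells, and the block changed no other call of the 9 genes under the rule with the minimum. Library size only gave 2 called lower between control populations. With each library left out, the count called lower was 1 to 3 between control populations (3 without Thy1+ control replicate 2) and 0 to 2 between CKO populations (0 without Thy1+ CKO replicate 3 or any c-Kit+ CKO library, 2 without Thy1+ CKO replicate 2).

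Signs changed only for values that passed no threshold. Tet3 in c-Kit+ CKO cells was 0.045 in the fit of all 12 libraries. The difference of effects of Tdg was -0.023 with DESeq2 and -0.022 with its size factors. With libraries left out, log2 values ran from -0.327 to 0.195 for Dnmt3b in Thy1+ CKO, from -0.066 to 0.039 for Tet3 and -0.004 to 0.057 for Tdg in c-Kit+ CKO, and from -0.080 to 0.023 for Dnmt3a between CKO populations. For the difference of effects they ran from -0.272 to 0.132 (Dnmt1), -0.498 to 0.079 (Dnmt3b), -0.297 to 0.294 (Dnmt3l), -0.316 to 0.091 (Uhrf1), -0.118 to 0.026 (Tet3) and -0.064 to 0.081 (Tdg). The cause was not tested. Depth limits only Dnmt3l.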
